A study of Mus musculus with 22 samples.

Results

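The genes described here are the collagens, taken as the 44 entries among the 55367 gene symbols of the deposited count table that are written as Col, a type number, the letter a and a chain number. They comprise 11 fibrillar collagens (Col1a1, Col1a2, Col2a1, Col3a1, Col5a1, Col5a2, Col5a3, Col11a1, Col11a2, Col24a1 and Col27a1) and 8 basement membrane collagens (Col4a1 to Col4a6, Col15a1 and Col18a1). A further 9 are FACITs, collagens that sit on the surface of fibrils (Col9a1, Col9a2, Col9a3, Col12a1, Col14a1, Col16a1, Col19a1, Col20a1 and Col22a1). The other 16 are the type VI chains Col6a1 to Col6a6, the network-forming Col8a1, Col8a2 and Col10a1, the anchoring Col7a1, the transmembrane Col13a1, Col17a1, Col23a1 and Col25a1, and Col26a1 and Col28a1. All 44 passed the filter on low counts, which kept 22409 genes.

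RNA of 22 libraries was sequenced from mouse liver cells labelled HSC, which usually stands for hepatic stellate cells, at zeitgeber time (ZT) 0, 6, 12 and 18 h, with lights on at ZT0 and off at ZT12. Of these, 12 diet libraries, 3 at each time, were from mice fed CDA-HFD, a high-fat diet that lacks choline, has defined amino acids and serves as a model of fibrotic fatty liver disease. The 10 control libraries were from chow-fed mice, with 3 libraries each for ZT0 and ZT18 and 2 each for ZT6 and ZT12. All mice were labelled as 20 weeks old, with the diet begun at 8 weeks of age, which matches the 12 weeks of diet given in one label. Another label gives 6 months, which is longer than the stated age of the mice, so the labels conflict. The strain, the sex and the way the cells were isolated are not stated in the sources used here. The labels do not state that libraries came from separate animals, so p-values describe the spread between libraries, which may be technical.

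Collagen chains are hydroxylated and folded into a trimeric helix in the endoplasmic reticulum, exported, trimmed by proteases and cross-linked outside the cell. Fibrillar collagens form the cable-like fibres of scars, type IV collagen forms the sheet-like mesh of basement membranes, and FACITs and type VI microfibrils link these to each other and to cells. In the liver, activated stellate cells are known as the main source of scar collagens, and type IV collagen lies thinly in the space between the sinusoidal endothelium and the hepatocytes.

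Library totals ran from 19754805 to 41665623 counts, and 40.2% of the variance lay on the first principal component. On it the diet libraries lay at 74.2 to 96.3 and the control libraries at -126 to -46.7. The control library nearest to the diet libraries was replicate 2 of ZT0 (-46.7), and all other control libraries lay at -95.8 or lower. The marker genes of the labelled cell type differed in level. Lrat, the retinol-storing enzyme of stellate cells, reached at most 3.65 CPM (counts scaled to library size with TMM factors) in a diet library and 3.24 CPM in a control library, and Tcf21 had a median of 0 in control libraries. Other genes of the list were higher: Rgs5 averaged 76.2 CPM in diet libraries and 6.28 CPM in control libraries, Dcn 95.0 CPM in diet libraries and 259 CPM in control libraries, and Ecm1 38.5 CPM in diet libraries and 274 CPM in control libraries. Ngfr rose by 4.51 on the log2 scale, at means of 1.21 CPM in diet libraries and 0.136 CPM in control libraries. The 18 stellate and fibroblast genes summed to 174 to 503 CPM in diet libraries (median 257), against 262 to 1044 CPM in control libraries (median 628), and 4 of them were lower, 4 higher and 10 not called. The 16 liver endothelial genes summed to 1332 to 3130 CPM in diet libraries, against 20477 to 39826 CPM in control libraries, and all 16 were lower. The 9 hepatocyte genes tested summed to 688 to 1582 CPM in diet libraries and 226 to 396 CPM in control libraries, with 8 higher. Mesothelial genes were lower in 6 of 7 cases, and genes of smooth muscle and portal fibroblasts in 3 of 8, with 2 higher. All 10 cholangiocyte genes and all 5 erythroid genes were higher. Beside these marker counts, 24.9% of all tested genes were lower and 27.5% higher. Genes of the adrenal cortex summed to 267 to 765 CPM in the control ZT18 libraries, 379 CPM in replicate 2 of control ZT12 and 309 CPM in replicate 1 of diet ZT18, and to at most 28.2 CPM in any other diet library and 27.6 CPM in any other control library. RNA was bulk, so fewer cells of a type and less RNA per cell cannot be told apart in any result below.

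Summed over all 44 genes, collagen transcripts were scarcer under the diet. Their summed level was 156 CPM in the lowest, 238 CPM in the median and 332 CPM in the highest diet library, against 889, 1256 and 1748 CPM in the lowest, median and highest control library. No diet library reached the lowest control library. Most of the control sum came from Col4a2, Col13a1 and Col4a1, with control means of 418, 331 and 306 CPM and diet means of 46.9, 19.8 and 31.4 CPM. The gap between the sums thus describes mainly these genes, and in 40 of the 44 collagens the groups overlapped. Over the 4 times together, 20 of the 44 collagens changed (45.5%), where 52.4% of all tested genes did, by the quasi-likelihood test of edgeR, adjusted over all tested genes by the Benjamini-Hochberg method, with a threshold of 0.05. Of these, 15 fell, where 24.9% of all genes fell, and 5 rose, where 27.5% of all genes rose. The median log2 change over the 44 collagens was -0.48, beside 0.08 over all genes tested. By level, all 12 collagens with a mean of at least 5 CPM were called, 7 of 13 with a mean of at least 1 CPM, and 1 of 19 below that, Col6a5. Most genes of the highest band were called: 8222 of 10804 genes with a mean of at least 5 CPM passed when only these were tested. No such share of all genes is given for the lower bands, so their counts cannot be read as a trait of collagens.

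**Figure D1:**
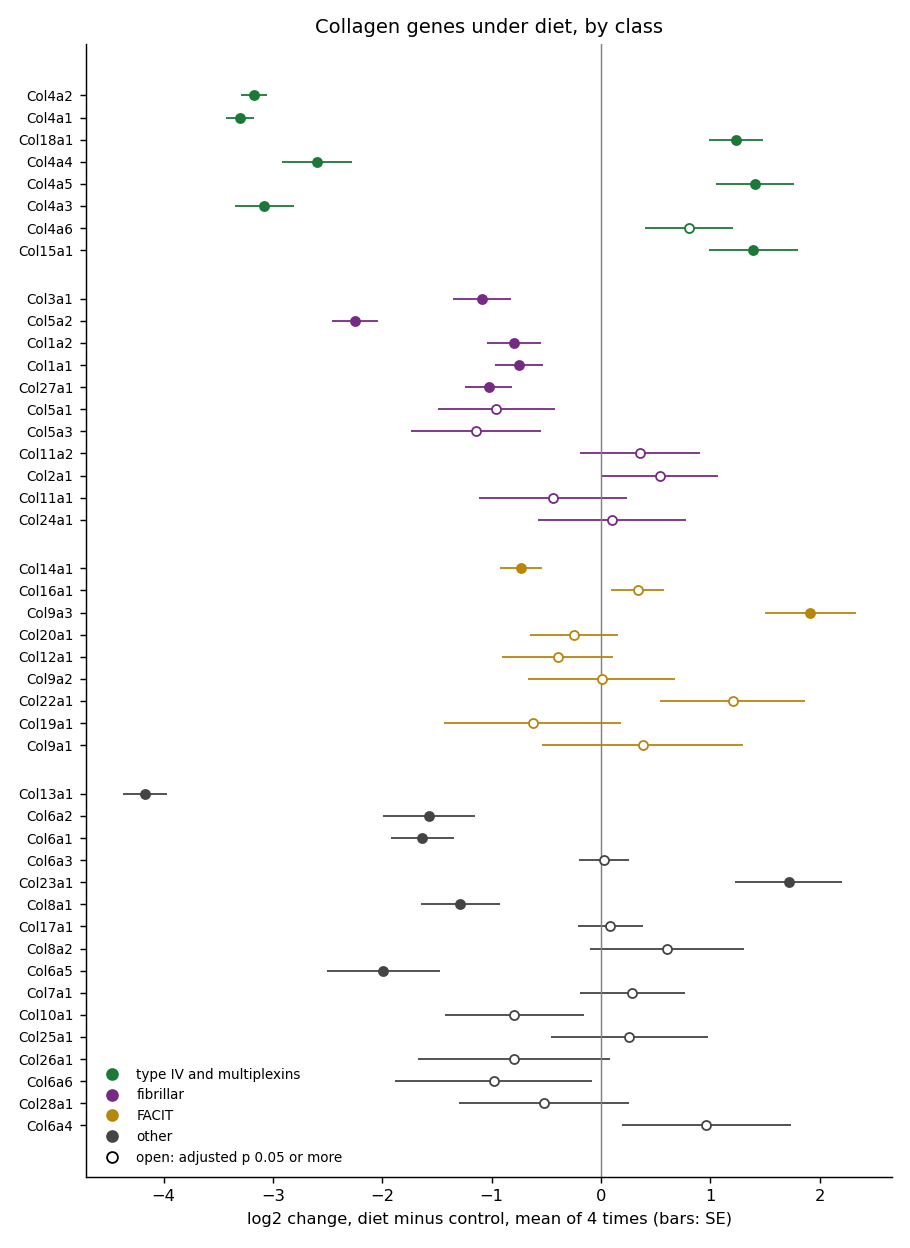
Log2 change of each of the 44 collagens, diet minus control, as the mean of the 4 times (x axis, bars are the standard error), grouped by class and ordered by level within it. Filled points passed an adjusted p of 0.05 and open points did not. Col13a1 lies farthest left at -4.17 and Col4a1, Col4a2 and Col4a3 lie near -3, while Col9a3 lies farthest right among the filled points at 1.91.

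The counts are given by class, without a test between classes. For comparison, 52.4% of all tested genes changed, 24.9% lower and 27.5% higher. The share of members called was below that of all genes in the fibrillar class (45.5%), the FACITs (22.2%) and the remaining class (37.5%), and above it in the basement membrane class (87.5%). In the basement membrane class 7 of 8 members changed, 4 lower and 3 higher, with a median log2 change of -0.90. In the fibrillar class 5 of 11 fell and none rose, with a median of -0.80. FACITs had 1 member lower and 1 higher of 9, with a median of 0.00. In the remaining class 5 fell and 1 rose of 16, with a median of -0.66. In 4 genes, Col13a1, Col4a1, Col4a2 and Col5a2, every diet library lay below every control library, an arrangement that 9.78% of all tested genes showed. No collagen had every diet library above every control library, which 7.35% of all genes did.

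The type IV chains form pairs of genes that lie head to head, each pair transcribed outward from a shared start region. Col4a1 and Col4a2 encode the chains found in nearly all basement membranes, Col4a3, Col4a4 and Col4a5 the chains known from the kidney glomerulus, and Col4a6 a chain known from smooth muscle and epithelia. In the GENCODE M21 annotation of GRCm38, Col4a1 lies on chromosome 8 from 11198423 to 11312826 on the minus strand and Col4a2 from 11312805 to 11449287 on the plus strand, so that their first exons overlap by 22 bases. Col4a4 (chromosome 1, 82448423 to 82586849, minus strand) and Col4a3 (82586921 to 82722059, plus strand) start 71 bases apart, and Col4a6 (chromosome X, 141165403 to 141474076, minus strand) and Col4a5 (141475385 to 141689234, plus strand) 1308 bases apart. The sequences at these starts are shown because each pair shares a start region whose outputs are compared below, and they come from RefSeq promoter windows of GRCm38.p6, 5′ to 3′ on the strand named. In the first, at chr8:11312801-11312830 on the plus strand, capitals mark the 22 bases that lie in the first exons of both genes. The second spans the whole gap at chr1:82586850-82586920 on the plus strand. In the last pair, capitals mark a match on either strand, to GGGCGG upstream of Col4a6 at chrX:141474077-141474326 (minus strand) and to CCAAT upstream of Col4a5 at chrX:141475169-141475384 (plus strand).
Col4a1 and Col4a2 shared start: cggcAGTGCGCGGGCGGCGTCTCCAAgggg
Col4a4 to Col4a3 gap: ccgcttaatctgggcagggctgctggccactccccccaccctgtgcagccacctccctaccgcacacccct
Col4a6 upstream: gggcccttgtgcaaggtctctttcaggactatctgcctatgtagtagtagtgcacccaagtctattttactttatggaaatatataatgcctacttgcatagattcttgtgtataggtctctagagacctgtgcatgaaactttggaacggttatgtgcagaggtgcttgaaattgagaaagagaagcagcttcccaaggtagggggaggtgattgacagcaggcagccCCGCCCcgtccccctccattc
Col4a5 upstream: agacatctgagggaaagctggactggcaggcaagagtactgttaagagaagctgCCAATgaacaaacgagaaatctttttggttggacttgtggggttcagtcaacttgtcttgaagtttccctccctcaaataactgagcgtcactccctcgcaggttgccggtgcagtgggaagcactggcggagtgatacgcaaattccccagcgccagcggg

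Col4a2 had 24.9 CPM in the lowest, 45.8 in the median and 85.03 in the highest diet library, against 237, 369 and 640 CPM in the lowest, median and highest control library. It fell by 3.17 on the log2 scale (SE 0.12, edgeR adjusted p = 5.49e-15), which is 9.03-fold lower. Col4a1 had 18.03, 32.2 and 43.9 CPM in the lowest, median and highest diet library, against 202, 309 and 438 CPM in control libraries. It fell by 3.30 (SE 0.13, edgeR adjusted p = 9.67e-15), 9.87-fold lower. The pair thus changed by nearly the same amount, and neither gene's groups overlapped. Among all tested genes, 3.20% fell by more than 3 on the log2 scale and passed the test. Reads from the 22 shared bases cannot be assigned to one gene without a stated strand setting, but these are a small part of 7464 and 6619 exon bases in Col4a1 and Col4a2.

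The second pair fell as well, at a lower level. Col4a3 had 0.236, 0.480 and 1.25 CPM in the lowest, median and highest diet library, against 1.21, 5.26 and 9.74 CPM in control libraries. Its log2 change was -3.08 ± 0.27 (SE, edgeR adjusted p = 3.88e-09), and 11 of 12 diet libraries lay below every control library. Exons of Col4a3 share 563 bases with C430014B12Rik on the other strand, so its counts are uncertain to that extent. Col4a4 had 0.216, 1.25 and 2.35 CPM in diet libraries, against 1.72, 7.94 and 12.99 CPM in control libraries. It changed by -2.60 ± 0.32 (SE, edgeR adjusted p = 6.84e-07), with 9 of 12 diet libraries below every control library.

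The pair on the X chromosome went the other way. Col4a5 had 1.34, 3.61 and 7.82 CPM in the lowest, median and highest diet library, against 0.193, 1.54 and 4.22 CPM in control libraries. It rose by 1.40 ± 0.36 (SE, edgeR adjusted p = 0.00224), although only 4 of 12 diet libraries lay above every control library. Col4a6, its partner, was not called, at a log2 change of 0.80 ± 0.41 (SE, edgeR adjusted p = 0.107), with 0.473, 2.01 and 3.804 CPM in diet libraries and 0.383, 1.07 and 3.39 CPM in control libraries. It passed the threshold with library size as the only scaling (adjusted p = 0.0459) and without the ZT18 libraries (0.0274).

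The multiplexins, collagens of the basement membrane zone whose end fragments are released as anti-angiogenic peptides, were also higher. Col18a1, which carries endostatin and is known in human liver from hepatocytes, had 8.37, 19.9 and 39.7 CPM in the lowest, median and highest diet library, against 2.91, 8.42 and 23.5 CPM in control libraries. The groups overlapped, and 3 of 12 diet libraries lay above every control library. It rose by 1.23 ± 0.24 (SE, edgeR adjusted p = 2.17e-04), or 2.35-fold. The highest diet library, replicate 1 of ZT12, also had the highest level of the hepatocyte gene Alb (815 CPM) among diet libraries. The highest control library, replicate 1 of ZT18, had the highest Alb among control libraries (191 CPM). The hepatocyte gene sum of that control library was 340 CPM. Replicate 2 of control ZT6 had a higher sum, 396 CPM, while its Col18a1 level was 5.36 CPM. Replicate 1 of diet ZT12 also had the highest cholangiocyte gene sum (5301 CPM). The part of hepatocyte RNA in the Col18a1 result was not tested. Col15a1 had 0.608, 1.47 and 2.15 CPM in diet libraries, against 0.0416, 0.491 and 1.31 CPM in control libraries. It rose by 1.39 ± 0.41 (SE, edgeR adjusted p = 0.00679), with 9 of 12 diet libraries above every control library.

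Among the laminins, nidogens and other partners that assemble with type IV collagen, 15 of 22 genes fell and 4 rose, with a median log2 change of -1.22. The shares of all tested genes that fell and rose were 24.9% and 27.5%. Log2 changes were -3.38 (SE 0.12) for the laminin chain Lama4, -3.44 (SE 0.13) for the nidogen Nid1, -3.56 (SE 0.13) for the proteoglycan Hspg2 and -3.10 (SE 0.09) for the collagen-binding Sparc. Lamb3 and Lamc3 were among the genes that rose, with log2 changes of 1.18 and 1.29, as was Npnt at 1.85. The endothelial marker sum moved in the same direction as Col4a1 and Col4a2, at 1332 to 3130 CPM under the diet and 20477 to 39826 CPM in control libraries, and its part in their decrease was not tested.

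The collagen with the largest change was Col13a1, a transmembrane collagen known from cell adhesion sites and the neuromuscular junction. Per kilobase of exon it was the most abundant collagen of control libraries, at 71.9 ± 18.8 RPKM (CPM per kilobase of exon, SD, n = 10), and came after Col4a2 in diet libraries at 4.30 ± 2.05 RPKM (SD, n = 12). On the same per-length scale Col4a2 had 7.09 ± 2.58 RPKM in diet libraries and 63.1 ± 24.7 RPKM in control libraries. The gap between the genes was larger than either SD in diet libraries and smaller than either SD in control libraries. Col13a1 had 9.58, 15.9 and 41.0 CPM in the lowest, median and highest diet library, against 103, 355 and 424 CPM in control libraries. It fell by 4.17 on the log2 scale (SE 0.20, edgeR adjusted p = 3.72e-13), which is 18.01-fold lower. The lowest control value, in replicate 2 of ZT0, stood apart from the other control libraries, which held at least 311 CPM, and the same library was the lowest control for the endothelial receptor gene Kdr (1895 CPM). The Col13a1 change stayed between -4.34 and -3.95 in the alternative settings, that library left out included.

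Col13a1 lies on chromosome 10 from 61838236 to 61979108 on the minus strand. The 250 bases before its start (chr10:61979109-61979358, minus strand, GRCm38.p6, RefSeq) and the 232 bases before that of Col18a1 (chr10:77166549-77166780, minus strand) are shown because these are the basement membrane and transmembrane genes at the opposite ends of the change among collagens over 5 CPM. Capitals mark a match to TATAAA in Col13a1, and to CCAAT (once) and GGGCGG (3 matches) on either strand in Col18a1. Col18a1 has another start, with a window at chr10:77113656-77113955 (minus strand) that holds none of these motifs and is not shown. Counts per gene do not separate the starts.
Col13a1 upstream: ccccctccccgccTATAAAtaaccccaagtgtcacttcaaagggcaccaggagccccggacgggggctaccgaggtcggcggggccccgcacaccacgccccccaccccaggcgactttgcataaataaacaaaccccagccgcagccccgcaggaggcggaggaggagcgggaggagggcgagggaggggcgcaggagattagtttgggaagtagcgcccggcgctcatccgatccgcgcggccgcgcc
Col18a1 upstream: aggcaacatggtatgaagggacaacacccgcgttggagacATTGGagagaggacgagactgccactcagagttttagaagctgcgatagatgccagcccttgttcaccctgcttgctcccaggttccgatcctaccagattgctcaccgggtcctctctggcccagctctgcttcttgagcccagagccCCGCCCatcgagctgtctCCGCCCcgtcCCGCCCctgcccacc
Windows of 250 bases before to 50 bases after a start were found for 35 of the 44 collagens, 38 windows in all. On either strand GGGCGG stood in 60.5% of them, against 35.7% of all 32851 windows, CCAAT in 34.2% against 37.4%, TATAAA in 13.2% against 13.6%, and CACGTG, the E-box letters that clock proteins bind, in 0 of 38 against 7.15%. No match of one motif overlaps another in the sequences shown. These are matches of letters and describe the windows alone.

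Other transmembrane collagens differed from Col13a1. Col23a1 rose by 1.71 ± 0.49 (SE, edgeR adjusted p = 0.00557), with 3.28, 4.69 and 9.61 CPM in the lowest, median and highest diet library and 0.0364, 1.33 and 3.50 CPM in control libraries. In 9 of 12 diet libraries it lay above every control library. Col17a1, the collagen of hemidesmosomes, was not called, at 0.08 ± 0.30 (SE, adjusted p = 0.854), and neither was Col25a1 at 0.26 ± 0.72 (SE, adjusted p = 0.803).

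**Figure D2:**
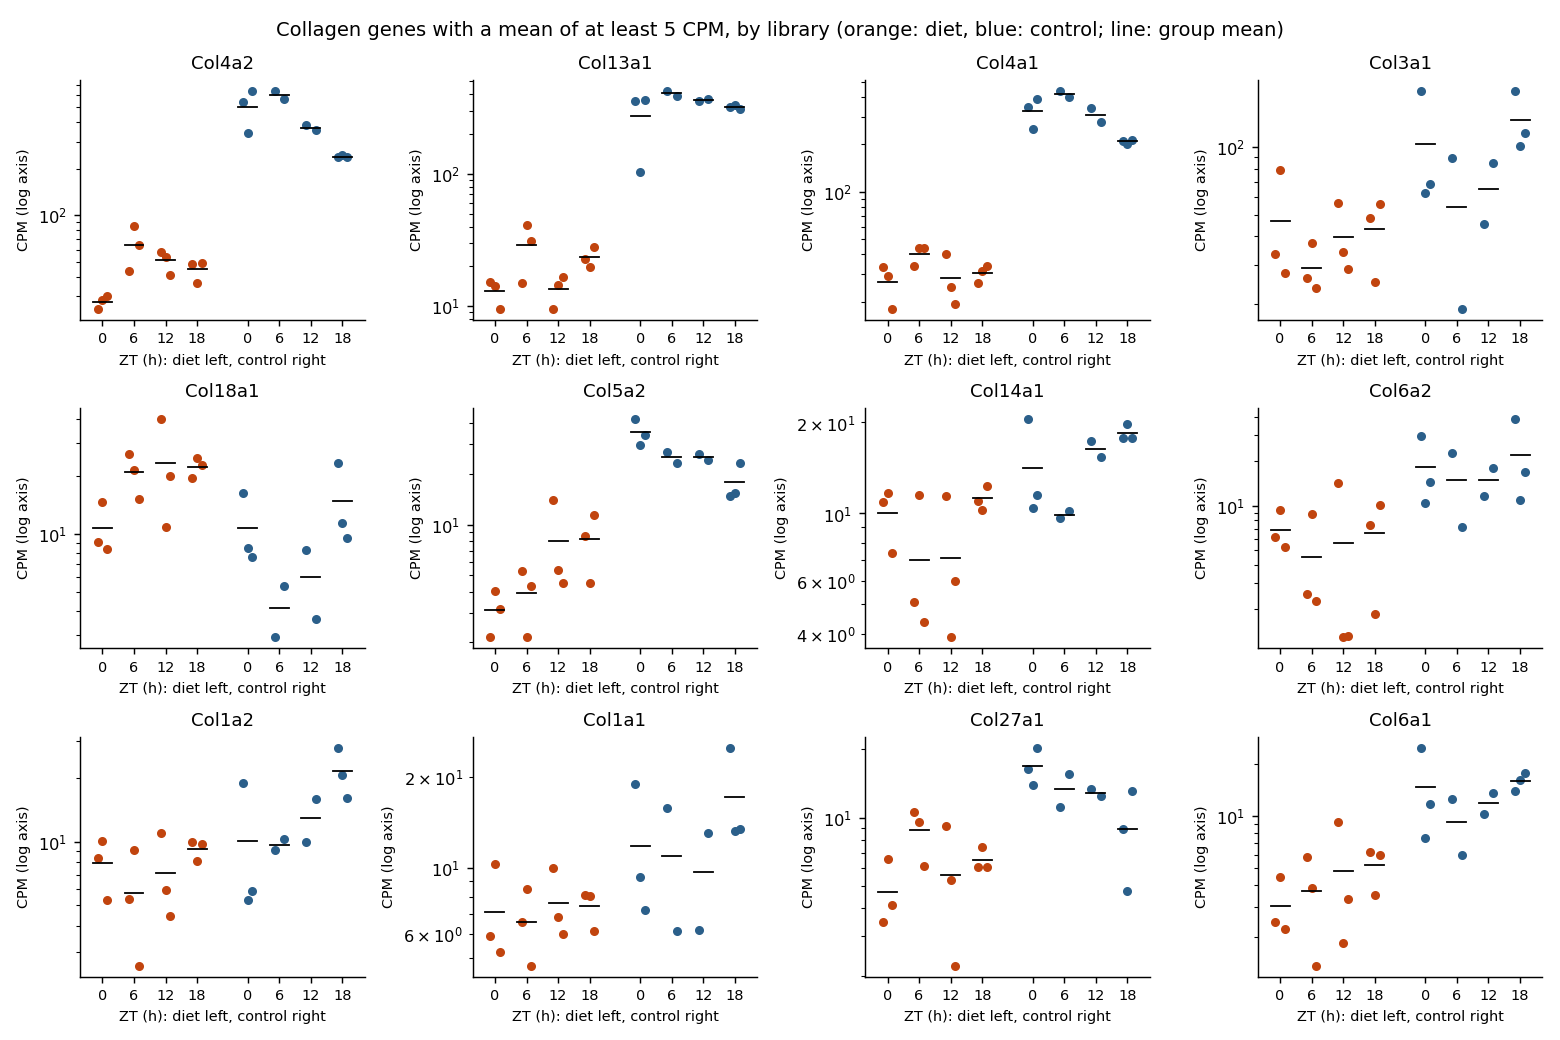
Level of the 12 collagens with a mean of at least 5 CPM in each library (y axis, CPM, log axis), by zeitgeber time, with diet libraries in orange on the left and control libraries in blue on the right of each panel and a line at each group mean. In Col4a2, Col13a1, Col4a1 and Col5a2 the orange points lie wholly below the blue ones, and in the other panels the groups overlap.

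Among fibrillar collagens the scar collagens of types I and III fell by moderate amounts and with overlapping groups. Col3a1, the chain of type III collagen, had 23.6, 33.9 and 79.2 CPM in the lowest, median and highest diet library, against 19.1, 87.0 and 178 CPM in control libraries. It fell by 1.09 (SE 0.27, edgeR adjusted p = 0.00167), and the lowest library of all was a control one, replicate 2 of ZT6. Col1a1, a chain of type I collagen, had 4.72, 6.74 and 10.3 CPM in diet libraries, against 6.14, 13.1 and 25.1 CPM in control libraries. Its log2 change was -0.75 ± 0.22 (SE, edgeR adjusted p = 0.00657). Col1a2, its partner chain, had 2.60, 8.23 and 11.01 CPM in diet libraries, against 5.31, 13.1 and 27.9 CPM in control libraries. It changed by -0.80 ± 0.25 (SE, edgeR adjusted p = 0.00960). These calls were not firm. Without the ZT18 libraries and replicate 2 of control ZT12, which include the 5 libraries with high adrenal sums and also 2 diet libraries with low ones, Col3a1 had an edgeR adjusted p of 0.0910, Col1a1 0.268 and Col1a2 0.224, with log2 changes of -0.78, -0.42 and -0.56. Col1a1 also missed the threshold without replicate 1 of control ZT6 (adjusted p = 0.0534).

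Col5a2, a chain of type V collagen, which sets the width of type I fibrils, fell further than the fibrils' main chains. It had 2.15, 4.51 and 13.9 CPM in the lowest, median and highest diet library, against 14.7, 25.2 and 42.1 CPM in control libraries, and no libraries overlapped. It fell by 2.25 (SE 0.21, edgeR adjusted p = 1.27e-08), or 4.75-fold. Its partner chain Col5a1 was not called, at -0.96 ± 0.53 (SE, adjusted p = 0.144), nor was Col5a3, at -1.15 ± 0.60 (SE, adjusted p = 0.118). Col5a2 lies tail to tail with Col3a1 on chromosome 1, 24614 bases apart. In counts, Col5a2 per Col3a1 ran from 0.0507 to 0.248 in diet libraries (median 0.168) and from 0.0827 to 1.22 in control libraries (median 0.293). Col27a1, a thin-fibril collagen known from cartilage, had 2.22, 6.11 and 10.6 CPM in diet libraries, against 4.73, 13.2 and 20.4 CPM in control libraries, a log2 change of -1.03 ± 0.21 (SE, edgeR adjusted p = 3.36e-04). The other fibrillar chains, Col2a1, Col11a1, Col11a2 and Col24a1, had means under 1 CPM and were not called.

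The fibroblast proteoglycan gene Dcn had 44.6 to 250 CPM in diet libraries and 90.2 to 626 CPM in control libraries. It was among the 4 of 18 stellate and fibroblast genes that fell, with 4 higher and 10 not called. Replicate 1 of diet ZT12 was the highest diet library for Col1a2, Col5a2, Col6a1, Col6a2, Dcn and Lum. For Col1a1 and Col3a1 the highest was replicate 2 of diet ZT0 (10.3 and 79.2 CPM), and for Col14a1 replicate 3 of diet ZT18. Replicate 1 of control ZT18 was the highest control library for Col1a1, Col1a2, Col3a1, Col6a2 and Dcn, and the lowest for Col5a2 (14.7 CPM). For Lum the highest was replicate 3 of control ZT18 (39.2 CPM), and for Col5a2, Col6a1 and Col14a1 replicate 1 of control ZT0. The part of fibroblast RNA in the fibrillar results was not tested. Of the 22 tested genes whose proteins sit on fibrils, 13 fell and 3 rose, with a median log2 change of -1.31. Over all tested genes the shares were 24.9% lower and 27.5% higher. Log2 changes were -3.35 (SE 0.12) for the proteoglycan Bgn, -3.53 (SE 0.14) for Prelp, -3.46 (SE 0.29) for the thrombospondin Thbs2 and -3.32 (SE 0.36) for Ecm2. Fn1, Thbs1 and Matn2 rose, with log2 changes of 0.98, 1.71 and 1.63. Lum was not called (log2 -0.26, adjusted p = 0.400).

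Type VI collagen is a beaded microfibril built from a Col6a1, a Col6a2 and a Col6a3 chain, with Col6a5 able to take the place of the last. Col6a1 and Col6a2 fell by similar amounts, while Col6a3 was not called. Col6a1 had 1.37, 3.70 and 9.31 CPM in the lowest, median and highest diet library, against 5.97, 13.1 and 25.0 CPM in control libraries, a log2 change of -1.64 ± 0.29 (SE, edgeR adjusted p = 6.10e-05). Col6a2 had 1.30, 5.73 and 14.2 CPM in diet libraries, against 7.26, 15.6 and 38.5 CPM in control libraries, a log2 change of -1.57 ± 0.42 (SE, edgeR adjusted p = 0.00329). Col6a3 had 2.06, 3.84 and 5.84 CPM in diet libraries, against 1.53, 3.17 and 9.63 CPM in control libraries, and was not called at 0.03 ± 0.23 (SE, adjusted p = 0.949). Col6a5, at 0, 0.163 and 1.34 CPM in the lowest, median and highest diet library and 0.409, 0.991 and 2.98 CPM in control libraries, fell by 1.99 (SE 0.51, edgeR adjusted p = 0.00262). Without the ZT18 libraries Col6a5 did not pass (adjusted p = 0.0831). Col6a4 and Col6a6, at 1.02 CPM or less in every diet library and 0.870 CPM or less in every control library, were not called.

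Of the FACITs, Col14a1, which binds fibrils through decorin, had 3.90, 10.6 and 12.3 CPM in the lowest, median and highest diet library, against 9.63, 16.4 and 20.5 CPM in control libraries. It fell by 0.73 (SE 0.19, edgeR adjusted p = 0.00289), and 5 of 12 diet libraries lay below every control library. Col9a3, a chain of the cartilage collagen IX, had 1.28, 4.22 and 6.51 CPM in diet libraries, against 0.250, 0.806 and 3.21 CPM in control libraries. It rose by 1.91 ± 0.42 (SE, edgeR adjusted p = 5.76e-04), with 7 of 12 diet libraries above every control library, while the other type IX chains, Col9a1 and Col9a2, reached at most 1.17 CPM in a diet library and 1.41 CPM in a control library and were not called. Col9a3 exons share 234 bases with Tcfl5 on the other strand, so its counts are uncertain without a stated strand setting. Col16a1, at 3.45 CPM in the median diet library and 2.86 CPM in the median control library, was not called (adjusted p = 0.269), nor were Col12a1, Col19a1, Col20a1 and Col22a1. The network collagen Col8a1, known from vessel walls, had 0.173, 0.946 and 2.38 CPM in diet libraries, against 1.13, 2.78 and 4.30 CPM in control libraries, and fell by 1.29 (SE 0.36, edgeR adjusted p = 0.00493). Without the ZT0 libraries the Col8a1 call was lost at an adjusted p of 0.0501. Col7a1, Col8a2, Col10a1, Col26a1 and Col28a1 were not called over the 4 times together.

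The make-up of the collagen transcripts shifted along with their amount. Basement membrane genes held a median of 46.5% of all collagen counts in diet libraries and 57.2% in control libraries, and fibrillar genes 29.2% and 13.2%. FACITs held 6.00% to 12.0% in diet libraries, against 0.858% to 2.54% in control libraries, with no overlap. Col13a1 alone held 2.89% to 13.02% in diet libraries and 11.6% to 32.2% in control libraries. Col3a1 held a median of 16.8% in diet libraries and 6.90% in control libraries, and Col18a1 4.58% to 12.0% in diet libraries against 0.167% to 2.01% in control libraries. A share depends on every other member, so Col3a1 took a larger share under the diet while its own level was lower.

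**Figure D3:**
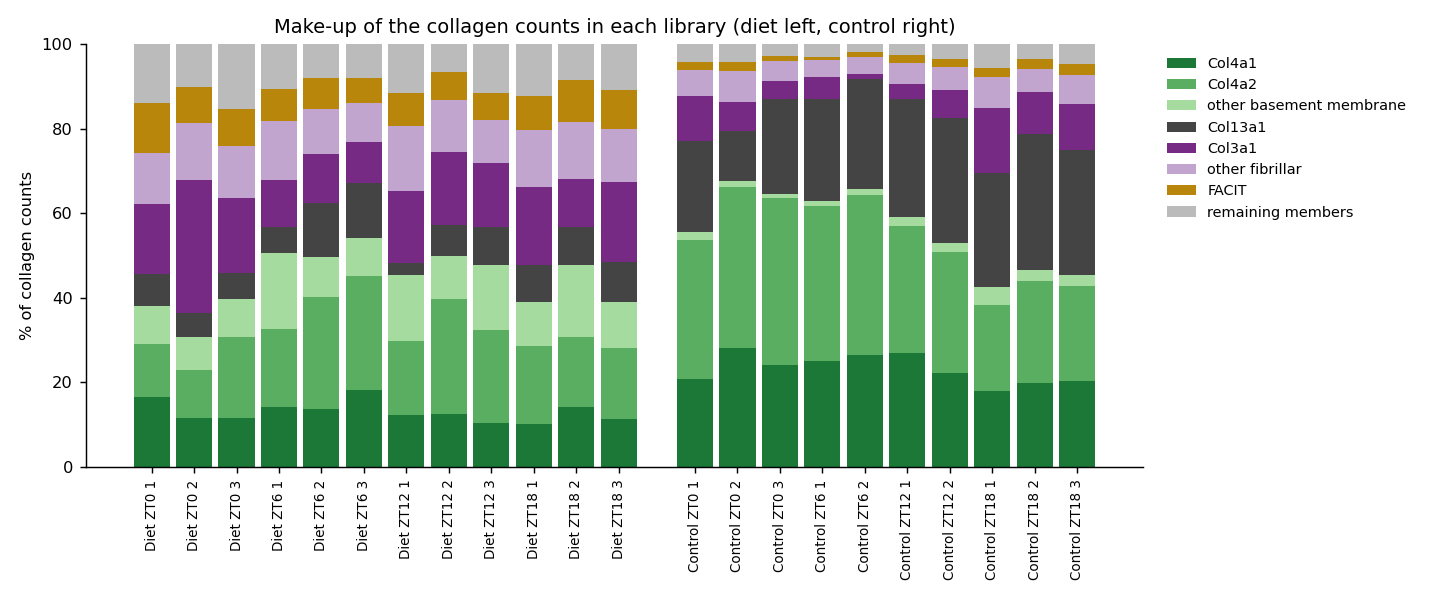
Share of all collagen counts in each library (y axis, percent), with the 12 diet libraries on the left and the 10 control libraries on the right. The bars for Col4a1, Col4a2 and Col13a1 are mostly shorter in the diet libraries, with some overlap, and those for FACITs are taller (6.00% to 12.0%, against 0.858% to 2.54% in control libraries).

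Genes that make, export and bind collagen were read beside the chains themselves. Of 36 genes for hydroxylation, folding, export, trimming and cross-linking, 23 fell and 3 rose, with a median log2 change of -0.90. Among all tested genes, 24.9% fell and 27.5% rose. The lysyl hydroxylase Plod1 had 84.8 ± 20.6 CPM in diet libraries (SD, n = 12) and 602 ± 156 CPM in control libraries (SD, n = 10). Crtap, part of the prolyl 3-hydroxylation complex, had a log2 change of -2.34 (SE 0.07), the transcription factor Creb3l2 -1.97 (SE 0.08) and the foldase Fkbp14 -3.43 (SE 0.15). Plod2, Mia2 and Adamts14 rose, with log2 changes of 1.38, 0.52 and 2.90. Of 14 genes for collagen receptors and uptake, 7 fell and 4 rose, with a median of -0.67, and the rises were near the share over all tested genes. The scavenger receptors Stab1, which also stands in the endothelial marker list, and Mrc1 had log2 changes of -4.37 (SE 0.12) and -4.26 (SE 0.13), and the integrin chain Itga1 -2.37 (SE 0.09). The inhibitory leukocyte receptor Lair1 rose by 2.62 ± 0.17 (SE), with 126 ± 28.2 CPM in diet libraries (SD, n = 12) and 24.8 ± 17.7 CPM in control libraries (SD, n = 10). Macrophage genes were higher in 7 of 10 cases and lymphocyte genes in 10 of 10, and their part in the Lair1 result was not tested.

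At single times fewer collagens passed. At ZT0, 9 of 44 were called, all lower (30.0% of all tested genes called, 16.5% lower and 13.5% higher). They were Col13a1, Col27a1, Col4a1, Col4a2, Col4a3, Col4a4, Col5a2, Col6a1 and Col8a1. At ZT6, 9 were called, 6 lower and 3 higher (30.1% of all tested genes, 15.3% lower and 14.8% higher), with Col18a1, Col4a5 and Col9a3 higher and Col13a1, Col5a2 and the 4 chains from Col4a1 to Col4a4 lower. At ZT12, 9 were called, 8 lower and Col18a1 higher (29.6% of all tested genes, 15.3% lower and 14.3% higher). The lower genes there were Col13a1, Col14a1, Col27a1, Col5a2 and Col4a1 to Col4a4. At ZT18, 13 were called, 10 lower and 3 higher (30.9% of all tested genes, 15.5% lower and 15.3% higher). Lower were Col13a1, Col1a1, Col3a1, Col5a2, Col6a1, Col6a5 and Col4a1 to Col4a4, and higher were Col15a1, Col6a3 and Col7a1.

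Col13a1, Col4a1, Col4a2, Col4a3, Col4a4 and Col5a2 were thus lower at each of the 4 times. Col13a1 changed by -4.39 for ZT0, -3.80 for ZT6, -4.73 for ZT12 and for ZT18 -3.76 on the log2 scale. Col5a2 changed by -3.51, -2.68, -1.67 and -1.13 at the same times, and the test that these differ gave an edgeR adjusted p of 0.0989. Col18a1 changed by -0.02 for ZT0, 2.35 for ZT6, 1.995 for ZT12 and for ZT18 0.60, with an edgeR adjusted p of 0.159 for a difference between times. At ZT0 its diet libraries held 9.17, 14.7 and 8.37 CPM and its control libraries 16.4, 8.52 and 7.59 CPM. At ZT6 they held 26.3, 21.7 and 15.3 CPM under the diet and 2.91 and 5.36 CPM in control, so the groups overlapped at ZT0 and not at ZT6. Col7a1, the anchoring fibril collagen, stood out at ZT18 because control libraries held 0.0416, 0.146 and 0 CPM there, against 0.777, 1.53 and 0.278 CPM in diet libraries. In all other control libraries Col7a1 held 0.681 to 1.72 CPM. The control values at ZT18 rest on 1, 4 and 0 reads, and the diet values there on 23, 58 and 8. For Col7a1 the edgeR adjusted p was 0.0689 over the times in control and 0.2 for a difference between times in the diet change. Many calls at single times were lost in some settings: Col27a1 at ZT12 was lost in 18 of 30 alternative settings, Col15a1 at ZT18 in 13 of 29, and the calls of Col1a1, Col3a1, Col5a2, Col6a1 and Col6a3 at ZT18, Col4a5 and Col9a3 at ZT6, Col14a1 at ZT12 and Col8a1 at ZT0 in at least 3 settings each. Leaving out replicate 2 of diet ZT18 left 5 calls at ZT18, all lower.

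Between times, Col4a2 was the only collagen called by edgeR. In control libraries it varied over the 4 times (edgeR adjusted p = 0.00548), where 5.74% of all tested genes did and 8 of the 44 collagens had an unadjusted p under 0.05. It had 543, 339 and 634 CPM at ZT0, 640 and 565 CPM at ZT6, 382 and 355 CPM at ZT12 and in the ZT18 libraries 237, 246 and 237 CPM. All ZT18 values lay below all values at the other times. In diet libraries it also varied (edgeR adjusted p = 0.0334), where 1.08% of all genes did and 3 collagens had an unadjusted p under 0.05. It had 24.9, 28.3 and 29.9 CPM at ZT0, 43.4, 85.03 and 64.2 CPM at ZT6, 58.4, 53.7 and 41.2 CPM at ZT12, and 48.3, 36.7 and 49.2 CPM at ZT18, so the lowest values were those of ZT0. The diet difference in Col4a2 varied with time, at -4.19 for ZT0, -3.23 for ZT6, -2.85 for ZT12 and for ZT18 -2.42 (edgeR adjusted p = 0.0274), where 0.959% of all genes did and 6 collagens had an unadjusted p under 0.05.

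**Figure D4:**
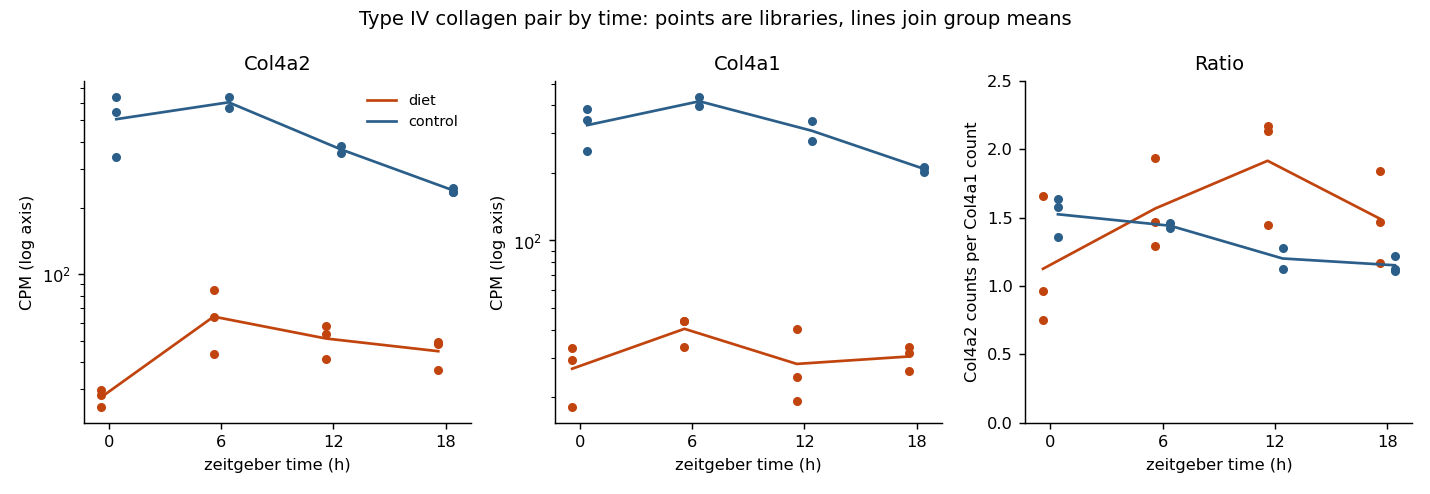
Col4a2 and Col4a1 in each library by zeitgeber time (y axes of the left and middle panels, CPM, log axis) and the count of Col4a2 per count of Col4a1 (right panel), with diet in orange and control in blue and lines through group means. Control values of both genes are lowest at ZT18 (237 to 246 CPM for Col4a2), and diet values of Col4a2 are lowest at ZT0 (24.9 to 29.9 CPM).

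The time calls of Col4a2 did not hold when ZT18 and replicate 2 of control ZT12 were left out. Adrenal cortex genes summed to 4.07 to 7.45 CPM in control libraries at ZT0 and to 267 to 765 CPM at ZT18. Without the ZT18 libraries and replicate 2 of control ZT12, none of the Col4a2 tests over the remaining 3 times passed, with an edgeR adjusted p of 0.701 in control, 0.234 under the diet and 0.427 for the difference between diets. That setting removes the lowest control time of Col4a2 along with libraries of low adrenal sums, so the part of adrenal RNA was not tested. The endothelial sum was 25391 to 27020 CPM in control libraries at ZT18 and 38109 to 39826 CPM at ZT6, and its part in the Col4a2 differences between times was not tested. With every time kept, the call in control held in all 30 other settings, while that under the diet was lost in 14 of 30 and the interaction in 7 of 29. Under the diet it was lost without any 1 of 13 libraries, with adjusted p up to 0.114 without replicate 1 of diet ZT0: control ZT6 and ZT12, diet ZT0 and ZT18 (any replicate), control ZT18 replicate 3 and diet ZT6 replicates 2 and 3. The interaction was lost without any 1 of 6 libraries, with adjusted p up to 0.0770 without replicate 1 of diet ZT0: control ZT18 replicates 2 and 3, diet ZT18 replicates 1 and 3 and diet ZT0 replicates 1 and 2.

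Col4a1 followed the same order of control groups, with 343, 250 and 387 CPM at ZT0, 438 and 397 CPM at ZT6, 340 and 277 CPM at ZT12 and in the ZT18 libraries 210, 202 and 213 CPM, and did not pass (edgeR adjusted p = 0.0777). Its diet difference by time did not pass either (adjusted p = 0.429). The count of Col4a2 per count of Col4a1 was 0.753 to 2.17 in diet libraries (median 1.47) and 1.11 to 1.64 in control libraries (median 1.32). Col4a3 had 1.21 to 3.13 CPM at ZT0, 4.95 to 5.58 CPM at ZT6, 6.68 to 9.74 CPM at ZT12 and 3.90 to 7.29 CPM at ZT18 in control libraries, with an edgeR adjusted p of 0.0737 over the times. DESeq2 called 5 collagens between times in control (Col18a1, Col4a1, Col4a2, Col4a3 and Col7a1), 3 under the diet (Col13a1, Col4a2 and Col5a2) and 5 in the interaction (Col18a1, Col4a2, Col5a2, Col6a3 and Col7a1).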

How the data were processed

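Per the submitters' processing notes, the authors aligned reads with STAR 2.7.9a to GRCm38 (mm10) and counted them per gene with HTSeq. The deposited values used here are these raw read counts. The authors' DESeq2-normalised table was not used. The annotation and strand setting of the counting are not stated in the sources used here. Groups come from the sample labels.

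Counts were tested in R 4.3.3 with edgeR 4.0.16. The filterByExpr function kept 22409 of 55367 genes. Counts were scaled by TMM, and fitted with glmQLFit and glmQLFTest in 1 model with 8 group means. The differences between diet and control were tested singly and as their average over the 4 times, and F tests covered times and the interaction. P-values were adjusted over all tested genes, with calls under 0.05. CPM and RPKM were computed from the counts and TMM sizes, RPKM with GENCODE M21 exon lengths. No replicate pair of the 20 compared was a repeat (chi-square at least 15.96 per degree of freedom). The scripts were tested on simulated data.

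The collagens, the other gene lists and the markers were chosen with earlier results of these data known. Every collagen is accounted for. Those with a mean of at least 5 CPM or called over times are given by lowest, median and highest library, and lists by up to 4 genes with the smallest p, with list genes that rose added after their values were seen. Alternatives were RLE or no scaling, no filter or a mean of 5 CPM, DESeq2 1.42.0, a replicate block, only the groups compared, and libraries or times left out. Leaving out the ZT18 libraries together with replicate 2 of control ZT12 was added after the data were seen.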

Additional observations from a re-analysis of the deposited data

Results flagged for a closer look

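Col13a1 in replicate 2 of control ZT0 was at 103.3 CPM, farther from the other 9 control libraries (311 to 424 CPM) than expected for the lowest of 10 values: the gap was 0.647 of the whole range, against a limit of 0.466. The limit is passed by chance in about 1 of 20 groups. It was applied to each of the 12 collagens with a mean of at least 5 CPM, so a pass somewhere among them is more likely than that. Only Col13a1 passed, and the next largest gap was 0.371, in Col6a1. The same library was the lowest control library for the endothelial gene Kdr, at 1895 CPM. All 12 diet libraries stayed below it, the highest at 41.0 CPM.

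Col4a2 had a diet difference that changed with zeitgeber time (edgeR adjusted p = 0.0274), with log2 differences of -4.19 at ZT0 and -2.42 at ZT18. It was not called without the ZT18 libraries and replicate 2 of control ZT12 (adjusted p = 0.427).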

How the results depend on the processing

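Over the 4 times together, 15 of the 20 called collagens kept their direction and their side of the threshold in every alternative (up to 34), and none of the 20 changed sign. The exceptions were Col1a1, Col1a2, Col3a1, Col6a5 and Col8a1, as described in the report. Of the 24 not called, 5 passed in some setting (Col22a1, Col4a6, Col5a1, Col5a3 and Col6a6) and 17 changed sign in at least 1. Counts of called collagens moved as follows, and the causes were not tested except where fewer genes or samples entered. With a mean of at least 5 CPM, which leaves fewer collagens to test, 12 were called over all times, 5 at ZT6, 8 at ZT18 and 2 between times in control. With no filter on low counts, 14 were called at ZT12, 8 between times in control, 6 under the diet and 6 in the interaction. DESeq2 gave 5, 3 and 5 for these last tests. With library size as the only scaling, which moved the median log2 change of all genes to 0.25 from 0.08, 2 were called between times in control. Without replicate 2 of control ZT0 and replicate 1 of control ZT18 together, 8 were called at ZT18 and 2 under the diet. Without the ZT18 libraries and replicate 2 of control ZT12, with fewer samples and 3 times, 0 were called in each of the 3 tests between times and 16 over all times.

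Leaving out 1 library in turn gave 19 to 22 calls over all times, 8 to 11 at ZT0, 6 to 10 at ZT6, 6 to 11 at ZT12, 5 to 15 at ZT18, 1 to 4 between times in control (4 without replicate 1 of control ZT0), 0 to 2 under the diet and 0 to 1 in the interaction. Over all tested genes no pairing by replicate number was seen: libraries with the same number in different groups had correlations of -0.143 to 0.138, with 2 of 71 pairs over 0.1. Their median was -0.00464, beside -1.0e-04 for libraries with different numbers. Values were taken as deviations from means of 2 or 3 libraries, so a pairing in part of the genes could not be seen this way. With a replicate block, 21 collagens were called over all times, and 0 between times under the diet and 0 in the interaction. Levels under 1 CPM limit what can be seen in 19 collagens.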
